A study of Arabidopsis thaliana with 8 samples.

Results

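A set of 10 Arabidopsis thaliana genes whose 5′ untranslated regions (5′ UTRs) carry a conserved upstream open reading frame (uORF) was followed by ribosome profiling (Ribo-seq) of inflorescences. The members are set by gene identifier and not by a cut on their values, and they were chosen with earlier results of these data known. They are the S1 bZIP transcription factor genes bZIP11 (AT4G34590), bZIP2 (AT2G18160), bZIP44 (AT1G75390) and bZIP53 (AT3G62420), the bHLH gene SAC51 (AT5G64340), the S-adenosylmethionine decarboxylase genes AdoMetDC1 (AT3G02470) and AdoMetDC2 (AT5G15950), the phosphoethanolamine methyltransferase gene NMT1 (AT3G18000), the transcription factor gene TBF1 (AT4G36990) and the GDP-L-galactose phosphorylase gene VTC2 (AT4G26850). All 10 were found among the 22567 transcripts in the files, 1 transcript for each gene, of which 22384 nuclear transcripts were used.

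The 4 genotypes in the Col-0 background were compared, with 2 libraries each and 8 in all: the hot3-2 mutant, wild type (WT), the hot3-2 dcl2 dcl4 triple mutant and the dcl2 dcl4 double mutant. hot3-2 is a T-DNA insertion allele of HOT3, the gene of a plant translation initiation factor eIF5B, and dcl2 dcl4 lacks the Dicer-like enzymes DCL2 and DCL4 through the alleles dcl2-1 and dcl4-2. All plants were grown at 16 h light and 8 h dark, the lysates contained cycloheximide, which holds elongating ribosomes on the mRNA, and RNase I trimmed the mRNA to ribosome footprints. The study calls its replicates independent, but the labels do not say whether they came from separate plants, so p-values measure the spread between these libraries. The genotypes with the hot3-2 allele, alone or with dcl2 dcl4, are the carriers, and those without it are the non-carriers.

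A uORF is read by ribosomes before they reach the main coding sequence, and it generally lowers how many of them start there. In most of the genes studied here the peptide encoded by the uORF is itself conserved and can act while it is still in the ribosome, in several cases by holding the ribosome near the end of the uORF. The effect of these uORFs depends on metabolites: sucrose for the S1 bZIP genes, polyamines for the AdoMetDC genes, thermospermine for SAC51, choline compounds for NMT1 and ascorbate for VTC2. eIF5B joins the ribosomal subunits at the start codon, the last step of initiation.

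The uORF ends are shown first because the ribosome positions described below are read against them. Each line gives the last 30 nucleotides of a uORF in lower case, 5′ to 3′, with the last sense codon and the stop codon in capitals, read from the RefSeq TAIR10.1 assembly.
bZIP11: ttcctttactggctttactatgtcTCATGA
bZIP2: ttcctctactggttttacaacgttTCATGA
bZIP44: tttctctactggttctatgttttcTCATAA
bZIP53: tacctctactacacctacgttttcTCATGA
AdoMetDC1: tactcaaactgctccaagaggccaTCCTGA
AdoMetDC2: tactccaactgcgctaagaggcctTCCTGA
NMT1: agatccagactcgccgtcgaaggcCACTGA
SAC51: ttgaatctgtattgccgtgtgataCTGTAG

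These stretches lie in 5′ UTR exons at chr4:16522197-16522226 (+ strand) for bZIP11, chr2:7898917-7898946 (- strand) for bZIP2, chr1:28292051-28292080 (+ strand) for bZIP44 and chr3:23092467-23092496 (- strand) for bZIP53. Those of AdoMetDC1 (chr3:509944-510068, + strand, interrupted by an intron), AdoMetDC2 (chr5:5206558-5206587, + strand), NMT1 (chr3:6154482-6154511, + strand) and SAC51 (chr5:25732691-25732720, - strand) follow. For SAC51 the end of the 20-codon uORF is shown, since it held the most P sites of the SAC51 uORFs. Its longest uORF of 53 codons had no P site at its end. Which SAC51 uORF is the conserved one was not examined. The 30 nucleotides matched at 26 positions between AdoMetDC1 and AdoMetDC2 and at 25 between bZIP11 and bZIP2. Every pair among the 4 bZIP genes matched at 19 positions or more, and all 4 share the last sense codon TCA.

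The other sequences carry the uORF starts that the results turn on. The first has in capitals the ACG codon that opens the VTC2 uORF in place of an ATG, and the second has in capitals the overlapping ATG codons of the tiny and the long AdoMetDC2 uORF.
VTC2: gtgatcggaatcACGgctatacacgggata
AdoMetDC2 starts: gcgtgaATGagattATGatggaatcgaaag

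They lie at chr4:13501434-13501463 (- strand) and chr5:5206415-5206444 (+ strand).

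The libraries held between 1972841 and 3588415 footprints, each reduced to its P site, the place in the ribosome where the tRNA holds the growing chain. HOT3 had 30.5 to 45.2 P sites per 1000000 coding-sequence P sites (PPM) in the carriers and 100 to 157 in the non-carriers. Over all nuclear genes, the 5′ UTR held 5.14% to 7.30% of 5′ UTR plus coding-sequence P sites in the carriers and 2.49% to 3.23% in the non-carriers. Of 6 flower marker genes 5 were found, and 1 of these 5 was at 0 in each library. Their sum was 469 to 526 PPM in the carriers against 583 to 652 in the non-carriers. The labels name the cell type as somatic cells, but both tapetum markers, whose genes act in the anther, were found and summed to 72.7 to 108 PPM in the carriers against 121 to 176 in the non-carriers. Both pollen markers summed to 129 to 158 PPM in hot3-2 against 173 to 189 in WT. They summed to 58.5 to 74.3 in hot3-2 dcl2 dcl4 against 72.1 to 74.5 in dcl2 dcl4. Both markers of photosynthetic tissue summed to 14436 to 15553 PPM in hot3-2 against 15516 to 17709 in WT. The values were 12207 to 13551 in hot3-2 dcl2 dcl4 against 12414 to 13321 in dcl2 dcl4. The flower and tapetum levels move with the hot3-2 allele, and the pollen and photosynthetic levels are lower with dcl2 dcl4. Their part in the results was not tested. A level of P sites follows both the amount of mRNA and its translation, and fewer cells of a type and less RNA per cell cannot be told apart.

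**Figure D1:**
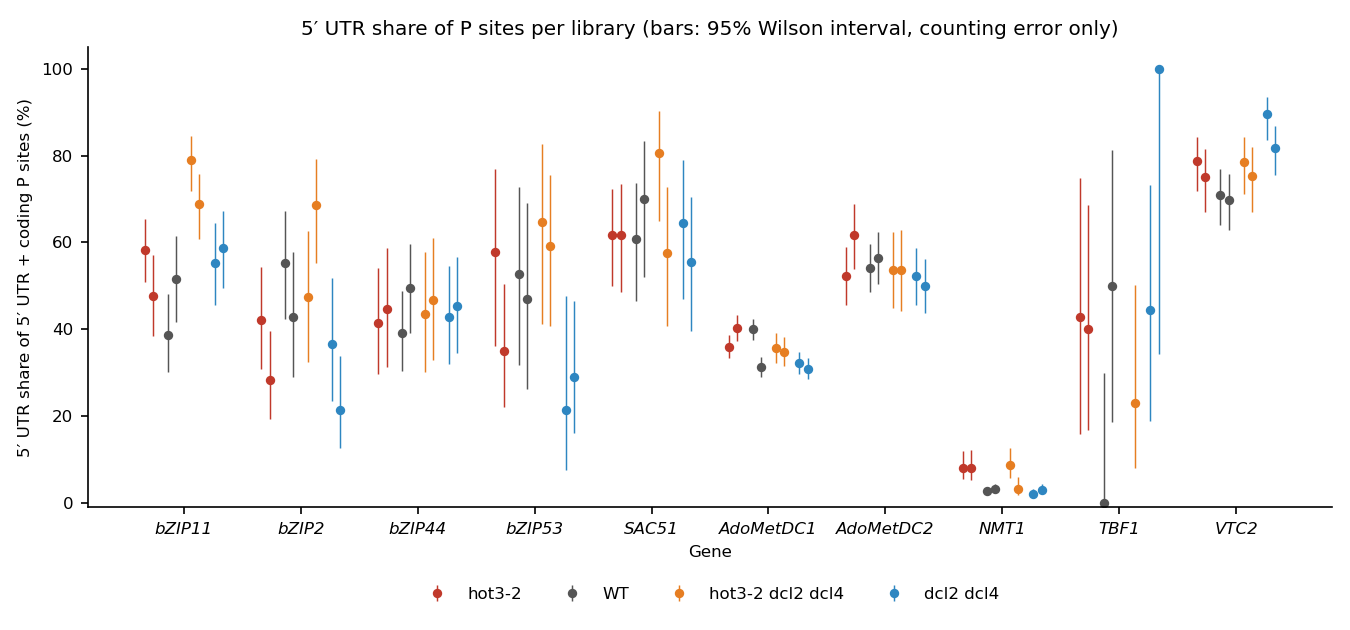
5′ UTR share of P sites (y axis, percent of 5′ UTR plus coding-sequence P sites) for each of the 10 genes (x axis) in each library. Points are libraries, coloured by genotype, and bars are 95% Wilson intervals that cover counting error only. NMT1 lies between 2.04% and 8.66% and VTC2 between 69.7% and 89.6%; AdoMetDC1 is drawn from its deposited positions, which are out of register, and TBF1 has 13 P sites or fewer in any library, and none in 1.

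In 5 of these genes the share of P sites on the 5′ UTR was among the 100 highest of all genes ranked. Pooled over the 8 libraries, the 5′ UTR held 77.2% of the P sites of VTC2, 63.6% of SAC51, 58.8% of bZIP11, 54.1% of AdoMetDC2, 44.6% of bZIP53, 44.0% of bZIP44 and 42.2% of bZIP2. Among 5981 genes with a mean of at least 50 P sites per library, VTC2 ranked 45, bZIP11 65, AdoMetDC2 72, bZIP44 90 and bZIP2 98 from the top. NMT1 had 3.64% and rank 1080. SAC51, bZIP53 and TBF1 had too few P sites to be ranked. The value printed for AdoMetDC1, 35.0% and rank 121, is not a 5′ UTR share, because its positions are out of register with the annotation, and in register its share was 2.5% to 9.24% by library.

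The quantities below were tested for each gene across the genotypes: the number of 5′ UTR P sites, the number of coding-sequence P sites, and the share of the 5′ UTR in their sum. The mean hot3-2 effect is the average of the differences hot3-2 minus WT and hot3-2 dcl2 dcl4 minus dcl2 dcl4, on the log2 scale, with p-values adjusted over all genes tested and a threshold of 0.05. Levels were compared with limma after scaling by coding-sequence counts, and shares with a quasi-binomial model whose effect is a log2 odds ratio. For the 5′ UTR level, 4 of the 10 genes passed (25% of all genes tested did), all of them higher in the carriers (24.6% of all genes): bZIP11, bZIP2, bZIP53 and SAC51. For the coding-sequence level, 2 of 9 genes tested passed (17.9% of all genes), bZIP11 higher (7.92% of all genes were) and NMT1 lower (9.95% of all genes were). For the 5′ UTR share, 1 of 7 genes tested passed (21.7% of all genes), NMT1, which was higher (21.6% of all genes). AdoMetDC1 was tested in all of these with its out-of-register positions and gave no call. Without it the median effect was 0.77 over 9 genes for the 5′ UTR level, 0.48 over 8 for the coding-sequence level and 0.31 over 6 for the share, and over all genes tested it was 1.15, -0.03 and 1.31. In the single comparisons the 5′ UTR share of 0 of 7 genes passed between hot3-2 and WT, where 5.9% of all genes passed. An unadjusted p under 0.05 was found there for 1 of the 7, and for 591 of all 2271 genes tested. Between hot3-2 dcl2 dcl4 and dcl2 dcl4 it passed for 0 of 7, where 6.87% of all genes passed. An unadjusted p under 0.05 was found there for 2 of the 7, and for 720 of all 2271. The coding-sequence level passed for 4 of 9 genes between hot3-2 and WT (14.4% of all genes), of which 3 were higher (6.8% of all genes) and 1 lower (7.64% of all genes), and for 1 of 9 between hot3-2 dcl2 dcl4 and dcl2 dcl4 (8.73% of all genes).

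**Figure D2:**
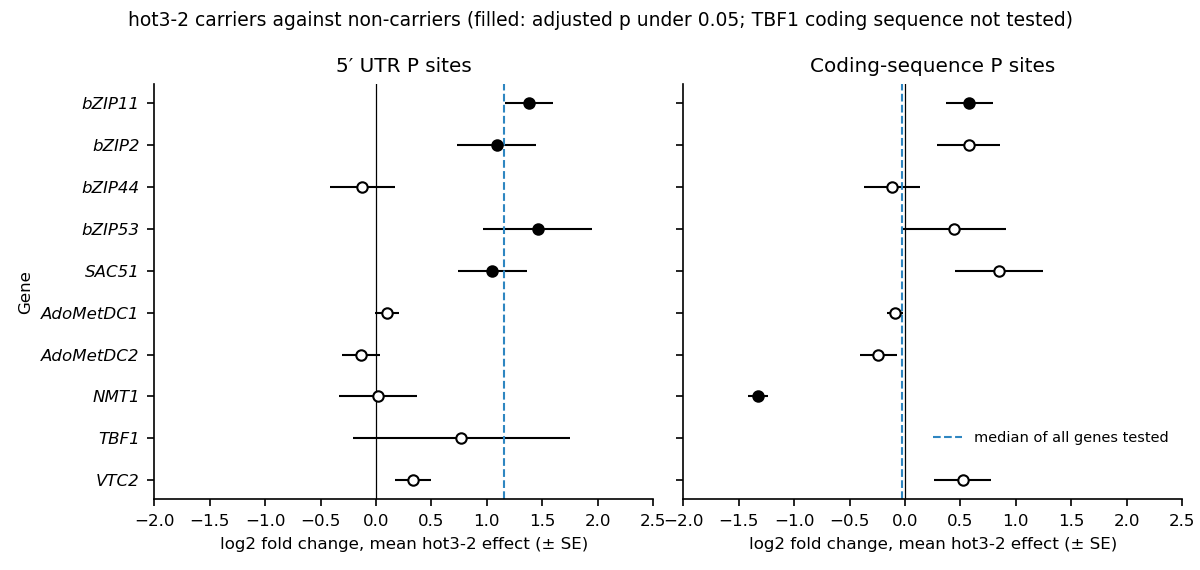
Mean hot3-2 effect (x axes, log2 fold change ± SE) on 5′ UTR P sites (left panel) and coding-sequence P sites (right panel) of each gene. Filled points passed an adjusted p of 0.05 and the dashed line is the median of all genes tested. In the 5′ UTR bZIP11, bZIP2, bZIP53 and SAC51 lie near the dashed line at 1.15 while bZIP44, both AdoMetDC genes and NMT1 lie near 0; in the coding sequence NMT1 stands apart at -1.32.

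NMT1, which methylates phosphoethanolamine on the way to phosphocholine, a building block of membrane lipids, had the largest change in coding-sequence level among the 9 genes tested for it. Its coding sequence held 260 and 216 P sites in hot3-2 against 1191 and 1038 in WT, and 232 and 296 in hot3-2 dcl2 dcl4 against 768 and 916 in dcl2 dcl4. In PPM this was 131 and 141 in hot3-2 against 419 and 401 in WT, and 194 and 231 in hot3-2 dcl2 dcl4 against 371 and 423 in dcl2 dcl4. All 4 carriers lay below all 4 non-carriers, as was so for 7.04% of the genes tested. The level fell by 1.32 on the log2 scale (SE 0.09, limma adjusted p = 2.13e-22). The difference was -1.64 (SE 0.12, limma adjusted p = 5.11e-19) between hot3-2 and WT and -1.0 (SE 0.12, limma adjusted p = 1.08e-09) between hot3-2 dcl2 dcl4 and dcl2 dcl4.

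The interaction, which asks whether the hot3-2 effect differs with and without dcl2 dcl4, was 0.64 for the NMT1 coding sequence (SE 0.18, limma adjusted p = 0.0455), where 1.16% of genes passed. This call was lost when any of 4 single libraries was left out and under 3 other settings, with adjusted p between 0.021 and 0.402 over all alternatives. Between dcl2 dcl4 and WT the NMT1 level differed by -0.03 (SE 0.09, limma adjusted p = 0.900).

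The 5′ UTR level of NMT1 did not fall in PPM as its coding sequence did. It held 23 and 19 P sites in hot3-2 against 33 and 34 in WT, and 22 and 10 in hot3-2 dcl2 dcl4 against 16 and 29 in dcl2 dcl4. In PPM this was 11.6 and 12.4 in hot3-2 against 11.6 and 13.1 in WT, and 18.4 and 7.82 in hot3-2 dcl2 dcl4 against 7.74 and 13.4 in dcl2 dcl4, so that the groups overlapped. The mean effect on the 5′ UTR level was 0.02 (SE 0.35, limma adjusted p = 0.968), below the median of 1.15 over all genes tested. The coding-sequence effect of -1.32 likewise lay below its median of -0.03. The 5′ UTR share was 8.13% and 8.09% in hot3-2 against 2.70% and 3.17% in WT, and 8.66% and 3.27% in hot3-2 dcl2 dcl4 against 2.04% and 3.07% in dcl2 dcl4. The carriers lay above the non-carriers, as for 24.4% of the genes tested. The share rose with a log2 odds ratio of 1.37 (SE 0.33, adjusted p = 0.0319), near the median of all genes. Without 1 library the adjusted p lay between 0.010 and 0.117 and missed the threshold in 7 of 8 cases, on 10 to 34 5′ UTR P sites per library.

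**Figure D3:**
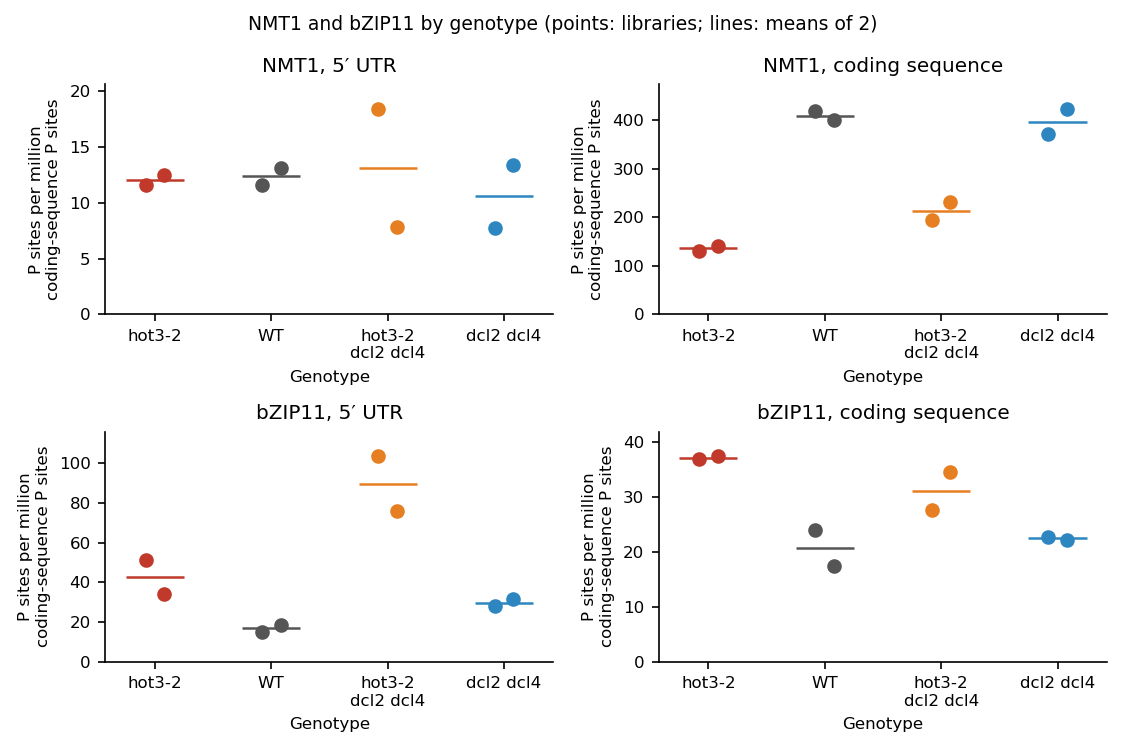
PPM (P sites per 1000000 coding-sequence P sites) (y axes) of NMT1 and bZIP11 in the 5′ UTR (left panels) and the coding sequence (right panels) by genotype (x axes). Points are libraries and lines are means of 2. NMT1 coding-sequence values are 131 to 231 in the carriers against 371 to 423 in the non-carriers with an overlapping 5′ UTR, and bZIP11 5′ UTR values are 34.0 to 104 in the carriers against 15.1 to 31.4 in the non-carriers.

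Within the NMT1 5′ UTR, positions are counted in nucleotides from the first base of the annotated start codon, which is position 0. The uORF of 25 sense codons runs from -144 to -67 and held 70 of the 186 5′ UTR P sites of all libraries, 30 of them on its last sense codon or stop codon. The most used position of the uORF was -71, with 24 P sites, the middle base of the capitalised CAC codon of the sequence shown above. A further 37 P sites lay at -195, upstream of the uORF.

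bZIP11, a regulator of amino acid and sugar metabolism, was the only gene of the set to pass the test for a rise on both the 5′ UTR and the coding sequence. Its 5′ UTR held 102 and 52 P sites in hot3-2 against 43 and 48 in WT, and 124 and 97 in hot3-2 dcl2 dcl4 against 58 and 68 in dcl2 dcl4. In PPM this was 51.5 and 34.0 in hot3-2 against 15.1 and 18.5 in WT, and 104 and 75.8 in hot3-2 dcl2 dcl4 against 28.1 and 31.4 in dcl2 dcl4. All 4 carriers lay above all 4 non-carriers, as was so for 25% of the genes tested. The level rose by 1.38 on the log2 scale (SE 0.22, limma adjusted p = 7.18e-05), by 1.30 (limma adjusted p = 0.0190) between hot3-2 and WT and by 1.46 (limma adjusted p = 0.00193) between hot3-2 dcl2 dcl4 and dcl2 dcl4. Of all genes tested, 6.78% and 6.99% passed in these 2 comparisons, and their median effects were 1.06 and 1.23. The median of the mean hot3-2 effect was 1.15 over all genes tested. The call between hot3-2 and WT was lost in 3 of 8 fits without 1 library (limma adjusted p up to 0.236) and the other in 2 of 8 (limma adjusted p up to 0.0789), and both were lost with 28 nt footprints alone.

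The coding sequence of bZIP11 held 73 and 57 P sites in hot3-2 against 68 and 45 in WT, and 33 and 44 in hot3-2 dcl2 dcl4 against 47 and 48 in dcl2 dcl4. In PPM this was 36.9 and 37.3 in hot3-2 against 23.9 and 17.4 in WT, and 27.6 and 34.4 in hot3-2 dcl2 dcl4 against 22.7 and 22.2 in dcl2 dcl4. The groups did not overlap, as for 8.86% of genes, and the level rose by 0.58 (SE 0.21, limma adjusted p = 0.0424). This call was lost in 6 of 8 fits without 1 library, with adjusted p between 0.027 and 0.204. The 5′ UTR share of bZIP11 was 58.3% and 47.7% in hot3-2 against 38.7% and 51.6% in WT, and 79.0% and 68.8% in hot3-2 dcl2 dcl4 against 55.2% and 58.6% in dcl2 dcl4. It did not pass the test (log2 odds ratio 0.83, SE 0.29, adjusted p = 0.0734).

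Most P sites of the bZIP11 5′ UTR lay at a single position, -227, near the end of its longest uORF. That uORF has 42 sense codons from -351 to -223 and held 475 P sites, of which 431 (90.7%) lay on the last sense codon and the stop codon and 0 on its start codon, where a count of 0 allows up to 3. Position -227 alone held 357 P sites, which is 60.3% of the whole 5′ UTR. Of these, 261 came from footprints of 29 nt and 64 from footprints of 28 nt, and 386 P sites fell there when the offsets named in the study were applied to footprints of 26 to 29 nt.

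In single libraries, position -227 held 41 and 31 P sites in hot3-2 against 19 and 27 in WT, and 92 and 60 in hot3-2 dcl2 dcl4 against 36 and 51 in dcl2 dcl4. In PPM this was 20.7 and 20.3 in hot3-2 against 6.69 and 10.4 in WT, and 76.8 and 46.9 in hot3-2 dcl2 dcl4 against 17.4 and 23.6 in dcl2 dcl4. Carriers were higher than non-carriers within each background, and hot3-2 overlapped with dcl2 dcl4. The share of the uORF P sites at its end was 82.7% and 82.5% in hot3-2 against 66.7% and 100% in WT, and 93.6% and 97.3% in hot3-2 dcl2 dcl4 against 100% and 94.8% in dcl2 dcl4. It did not pass the test (log2 odds ratio -0.37, SE 0.88, adjusted p = 0.880).

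More than 1 uORF covers that base. It is the middle base of the capitalised TCA codon, the last sense codon of the longest uORF, and the first base of a codon of another uORF, which has 5 codons from -233 to -216. Over the coding sequences of the nuclear genes in register, 93.4% of P sites of 28 nt footprints lay on the first base of a codon and 2.99% on the middle base, and of 29 nt footprints 69.99% and 28.97%. In the bZIP11 coding sequence 83.6% of all P sites lay on first bases. Of the 475 P sites on the 5-codon uORF, 76.2% were in its frame and 32 lay at its end, and of the 475 on the longest uORF 14.9% were in its frame. A uORF of 19 codons begins at -226, the next base.

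**Figure D4:**
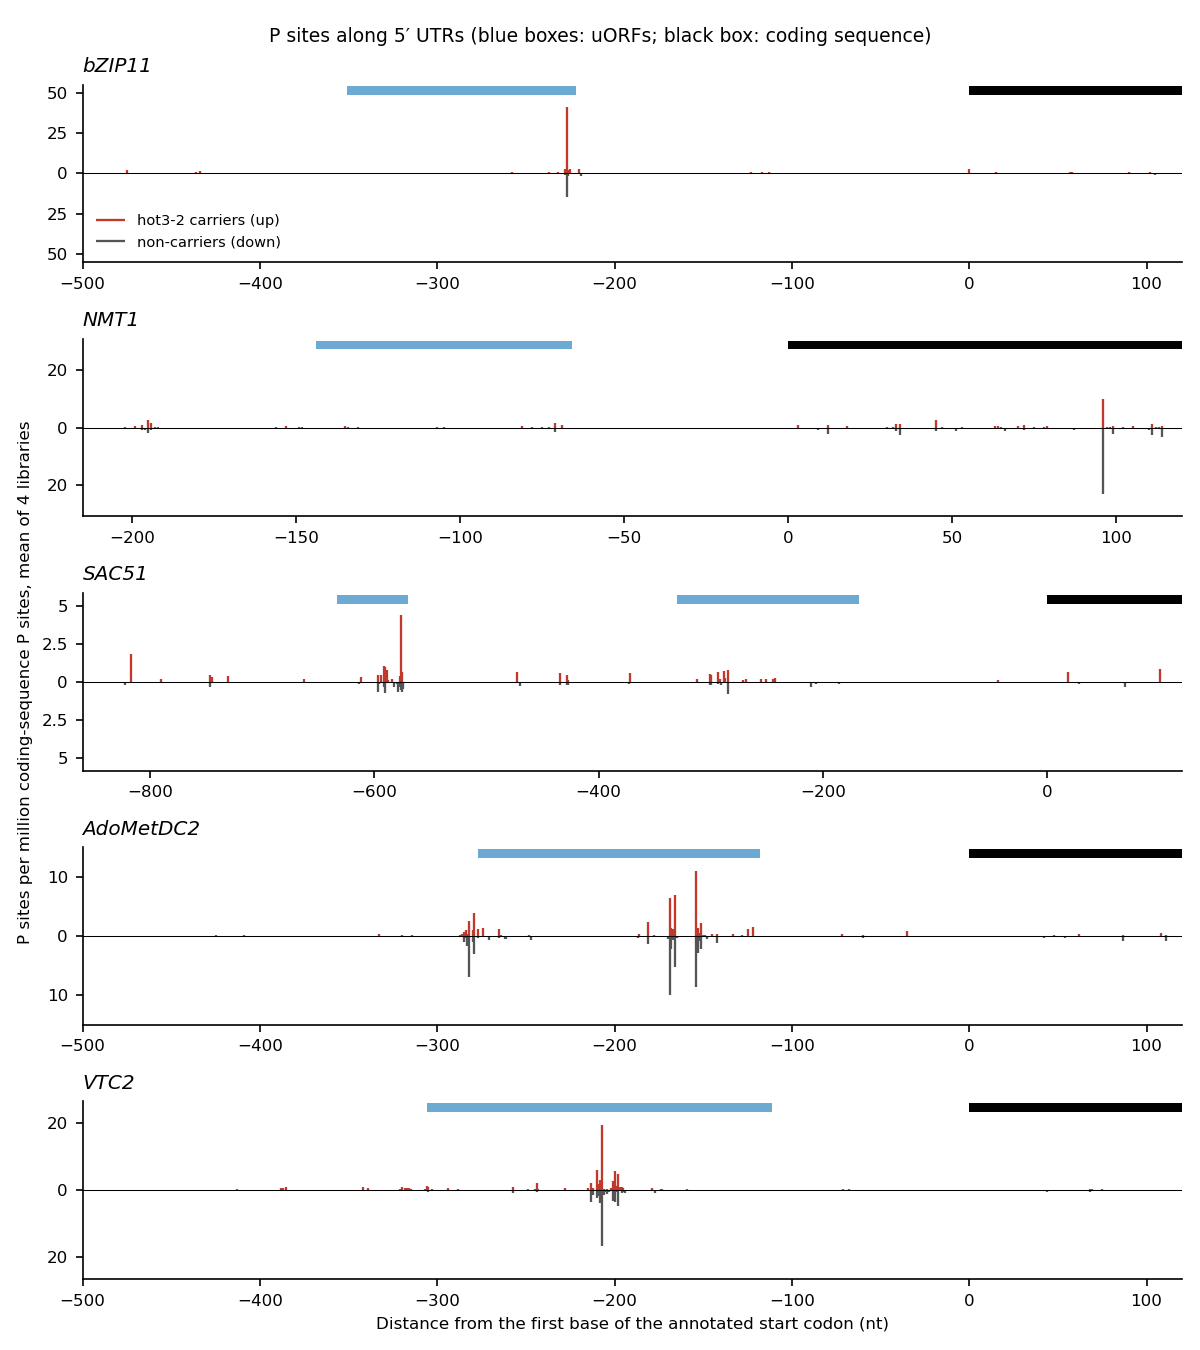
P sites along the 5′ UTR and the start of the coding sequence of bZIP11, NMT1, SAC51, AdoMetDC2 and VTC2. The x axes are the distance from the annotated start codon in nucleotides, the y axes are PPM (P sites per 1000000 coding-sequence P sites) as the mean of 4 libraries, with carriers drawn upward and non-carriers downward; blue boxes are uORFs and black boxes coding sequences. bZIP11 has 1 peak at -227, where its 42-codon uORF ends and its 5-codon uORF runs, AdoMetDC2 has peaks at -169, -166 and -154 inside the uORF, and VTC2 has its highest peak at -207 in both groups.

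In the other S1 bZIP genes, few P sites lay at the end of the longest uORF. In bZIP2 the uORF of 41 codons (-239 to -114) held 132 P sites, 69.7% of them in frame, with 26 on its start codon and 2 at its end. In bZIP44 the uORF of 41 codons (-269 to -144) held 95 P sites with 1 at its end, and in bZIP53 the uORF of 28 codons (-269 to -183) held 13 with 5 at its end. Shorter uORFs of these genes that begin further upstream had most of their P sites at the end, with 38 of 40 in the bZIP2 uORF of 4 codons (-253 to -239), 90 of 125 in the bZIP44 uORF of 8 codons (-309 to -283) and 13 of 18 in the bZIP53 uORF of 3 codons (-277 to -266). In the frame of these short uORFs lay 12.5%, 32.8% and 55.6% of their P sites. Each of these ends also overlaps the start of another uORF. The first shares its last base with the start codon of the longest bZIP2 uORF. Of the 20 P sites on that base, 16 came from footprints under 26 nt. The second shares its last base with the start of another bZIP44 uORF. Of the 21 P sites on that base, 15 came from footprints under 26 nt, and all 21 lay in WT and hot3-2 libraries. The third covers the start codon of the longest bZIP53 uORF. P sites of an end and of a start cannot be told apart there. The place given to the P site in footprints of 19 to 25 nt also differs between libraries, as described below for AdoMetDC2. No test between the genes was made.

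The bZIP2 5′ UTR had 13.6 and 13.7 PPM in hot3-2 against 11.3 and 6.95 in WT, and 15.0 and 28.9 in hot3-2 dcl2 dcl4 against 7.25 and 5.54 in dcl2 dcl4. These were 27 and 21 P sites in hot3-2 against 32 and 18 in WT, and 18 and 37 in hot3-2 dcl2 dcl4 against 15 and 12 in dcl2 dcl4. The level rose by 1.09 (SE 0.35, limma adjusted p = 0.0278), beside a median of 1.15 over all genes tested. This call was lost in 6 of 8 fits without 1 library. The bZIP2 coding sequence had 18.7 and 34.7 PPM in hot3-2 against 9.16 and 9.26 in WT, and 16.7 and 13.3 in hot3-2 dcl2 dcl4 against 12.6 and 20.3 in dcl2 dcl4. It was higher in hot3-2 than in WT by 1.35 on the log2 scale (SE 0.37, limma adjusted p = 0.00632), a call lost without WT library 1 (limma adjusted p = 0.0538), without hot3-2 library 2 (limma adjusted p = 0.183) and with 28 nt footprints alone (limma adjusted p = 0.178). The difference between hot3-2 dcl2 dcl4 and dcl2 dcl4 was -0.20 (SE 0.43, limma adjusted p = 0.862). The interaction was -1.55 (SE 0.57, limma adjusted p = 0.237), so that these effects are not shown to differ.

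bZIP53, a regulator of seed maturation and amino acid metabolism, had few P sites. Its 5′ UTR held 11 and 14 P sites in hot3-2 against 10 and 8 in WT, and 11 and 16 in hot3-2 dcl2 dcl4 against 3 and 9 in dcl2 dcl4. In PPM this was 5.55 and 9.16 in hot3-2 against 3.52 and 3.09 in WT, and 9.19 and 12.5 in hot3-2 dcl2 dcl4 against 1.45 and 4.16 in dcl2 dcl4. The carriers lay above the non-carriers, as was so for 25% of the genes tested. The level rose by 1.46 (SE 0.49, limma adjusted p = 0.0338), beside a median of 1.15 over all genes tested. This call was lost in 5 of 8 fits without 1 library, and the coding-sequence difference of 0.44 (SE 0.47, limma adjusted p = 0.587) did not pass.

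In bZIP44 carriers and non-carriers overlapped in every quantity. Its 5′ UTR had 12.1 and 13.7 PPM in hot3-2 against 14.1 and 16.6 in WT, and 16.7 and 16.4 in hot3-2 dcl2 dcl4 against 14.5 and 15.7 in dcl2 dcl4. The 5′ UTR share was 41.4% and 44.7% in hot3-2 against 39.2% and 49.4% in WT, and 43.5% and 46.7% in hot3-2 dcl2 dcl4 against 42.9% and 45.3% in dcl2 dcl4. The mean effect was -0.12 on the 5′ UTR level (SE 0.29, limma adjusted p = 0.778) and -0.12 on the coding-sequence level (SE 0.25, limma adjusted p = 0.815). A single position inside its coding sequence, 445, held 94 of its 297 coding-sequence P sites, 90 of them from footprints of 29 nt.

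SAC51, which promotes stem elongation downstream of thermospermine, had 21.2 and 22.3 5′ UTR PPM in hot3-2 against 9.86 and 8.11 in WT. It had 24.2 and 14.9 in hot3-2 dcl2 dcl4 against 9.67 and 9.24 in dcl2 dcl4, from counts of 19 to 42 in the carriers and 20 to 28 in the non-carriers. All carriers lay above all non-carriers, as was so for 25% of the genes tested. The level rose by 1.05 (SE 0.31, limma adjusted p = 0.0177), beside a median of 1.15 over all genes tested. This call was lost in 4 of 8 fits without 1 library. The coding sequence had 13.1 and 13.7 PPM in hot3-2 against 6.34 and 3.47 in WT, and 5.85 and 10.9 in hot3-2 dcl2 dcl4 against 5.32 and 7.39 in dcl2 dcl4. The difference of 1.42 between hot3-2 and WT (SE 0.51, limma adjusted p = 0.0443) was lost in 8 of 8 such fits, and the mean effect of 0.85 (SE 0.40, limma adjusted p = 0.138) did not pass.

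Ribosomes on SAC51 were spread over several uORFs. The 20-codon uORF (-633 to -571) held 108 of the 213 5′ UTR P sites, 47 of them at its end, and the longest uORF (-330 to -169) held 52, none at its end. Position -576, the first base of the capitalised CTG codon, held 32 P sites, of which 14 came from 1 hot3-2 library.

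The AdoMetDC genes make decarboxylated S-adenosylmethionine, the donor of aminopropyl groups for polyamines. AdoMetDC2 had 52.3% and 61.6% of its P sites on the 5′ UTR in hot3-2 against 54.1% and 56.5% in WT, and 53.7% and 53.8% in hot3-2 dcl2 dcl4 against 52.3% and 50% in dcl2 dcl4. Carriers and non-carriers overlapped, and the log2 odds ratio was 0.11 (SE 0.18, adjusted p = 0.660). The mean effect was -0.13 on the 5′ UTR level (SE 0.17, limma adjusted p = 0.576) and -0.24 on the coding-sequence level (SE 0.17, limma adjusted p = 0.360).

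The long AdoMetDC2 uORF of 52 codons (-277 to -119) held 670 of the 881 5′ UTR P sites, 77.9% of them in its frame. Its peaks were inside it and upstream of the end shown above, with 154 P sites at -154, 133 at -169 and 92 at -166, and 11 at the end. The tiny uORF of 3 codons (-285 to -274), whose ATG is the first in the sequence of overlapping starts, held 204 P sites. Its peaks at -282, with 72 P sites, and -279, with 56, came almost entirely from footprints under 26 nt. The deposited files place footprints of 19 to 25 nt 9 nt from their first base in dcl2 dcl4 libraries 1 and 2 and hot3-2 dcl2 dcl4 library 1, and 12 nt from it in the others. The first peak had 12 P sites in hot3-2 dcl2 dcl4 library 1 and 32 and 22 in dcl2 dcl4, where the offset is 9 nt, and 3 and 3 in WT. The second had 0 in those 3 libraries, so that the difference between libraries cannot be told apart from the offsets.

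In AdoMetDC1 the deposited positions do not match the annotated coding sequence. Of its 6291 P sites placed in the coding sequence, 9.89% were in frame and 74.1% were 1 base off. Comparison with AdoMetDC2 gave the best match when the AdoMetDC1 positions were moved by 251 nt (correlation 0.346 against -0.009 without the move, over positions and with no test), which is the summed length of its exon 3 (95 nt) and exon 4 (156 nt). After the move 78.0% of coding-sequence P sites were in frame. Of the 3389 P sites the file places in its 5′ UTR, 2865 then lay in the coding sequence. Such a mismatch was seen in 306 (6.10%) of 5016 transcripts with at least 500 coding-sequence P sites, and AdoMetDC1 was the only one of the 10 genes with another leading frame.

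**Figure D5:**
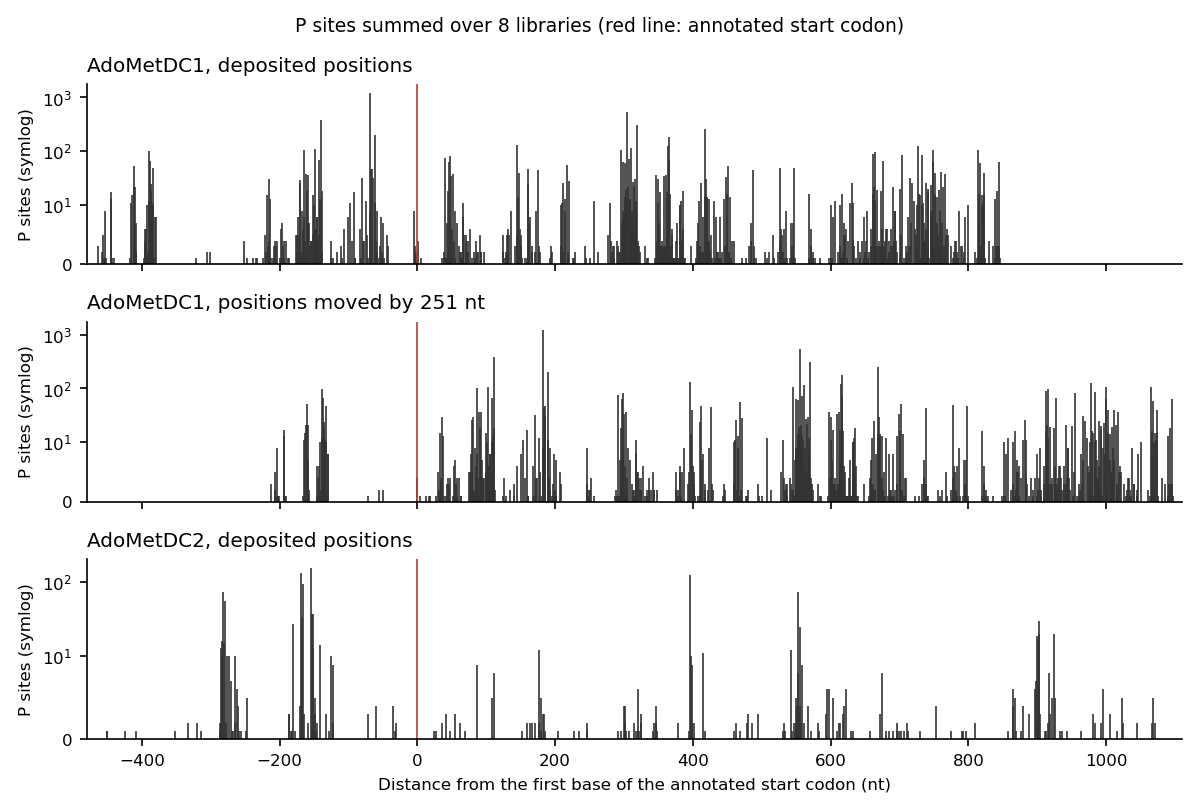
P sites summed over 8 libraries (y axes, symmetric log scale) by distance from the annotated start codon (x axis, nucleotides; red line at 0) for AdoMetDC1 as deposited, for AdoMetDC1 moved by 251 nt, and for AdoMetDC2. As deposited, the AdoMetDC1 signal ends at 846 in a coding sequence of 1101 nt; moved, it fills the coding sequence and leaves the 524 P sites of the 5′ UTR in clusters upstream of the start codon.

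As deposited, the AdoMetDC1 share was 35.9% and 40.3% in hot3-2 against 40.0% and 31.3% in WT, and 35.7% and 34.8% in hot3-2 dcl2 dcl4 against 32.3% and 30.9% in dcl2 dcl4. After the move it was 7.73% and 8.00% in hot3-2 against 4.01% and 3.25% in WT, and 8.16% and 9.24% in hot3-2 dcl2 dcl4 against 4.68% and 2.5% in dcl2 dcl4. The moved values do not overlap between carriers and non-carriers, whereas the deposited ones do. Of the genes tested for the share, 24.4% had all carriers above all non-carriers. The move was chosen after seeing the data and its values carry no test. With the deposited positions no effect of hot3-2 passed: the mean was 0.10 on the 5′ UTR level (SE 0.11, limma adjusted p = 0.505) and -0.09 on the coding-sequence level (SE 0.07, limma adjusted p = 0.416). The coding-sequence level was higher in dcl2 dcl4 than in WT by 0.32 (SE 0.09, limma adjusted p = 0.0195), the only one of the 9 genes tested to pass in that comparison, where 5.34% of genes passed. This call was lost in 3 of 8 fits without 1 library, with limma adjusted p up to 0.242, and with 28 nt footprints alone.

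VTC2, which catalyses the first committed step of ascorbate synthesis, had the highest share of P sites on its 5′ UTR when the 8 libraries were pooled. The share was 78.7% and 75.0% in hot3-2 against 71.0% and 69.7% in WT, and 78.5% and 75.2% in hot3-2 dcl2 dcl4 against 89.6% and 81.8% in dcl2 dcl4. It was higher in both hot3-2 libraries than in WT and lower in both hot3-2 dcl2 dcl4 libraries than in dcl2 dcl4. Neither difference passed, with log2 odds ratios of 0.50 (SE 0.31, quasi-binomial adjusted p = 0.331) and -0.78 (SE 0.37, quasi-binomial adjusted p = 0.199). The interaction was -1.28 (SE 0.49, quasi-binomial adjusted p = 0.801), so that these effects are not shown to differ. The mean log2 odds ratio was -0.14 (SE 0.24, adjusted p = 0.682). The 5′ UTR level had 67.1 and 64.8 PPM in hot3-2 against 46.5 and 50.6 in WT, and 97.7 and 73.5 in hot3-2 dcl2 dcl4 against 62.4 and 68.4 in dcl2 dcl4. Its mean effect was 0.33 (SE 0.16, limma adjusted p = 0.124), and that of the coding sequence 0.52 (SE 0.26, limma adjusted p = 0.166).

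The VTC2 uORF that opens with the ACG shown above has 64 sense codons from -306 to -112 and held 910 of the 983 5′ UTR P sites, 64.3% of them in its frame. By library it held 120 and 94 in hot3-2 against 127 and 122 in WT, and 90 and 84 in hot3-2 dcl2 dcl4 against 129 and 144 in dcl2 dcl4. These are counts that are not scaled to library size, and the libraries held 1197157 to 2839839 coding-sequence P sites. In PPM, as given above, the whole 5′ UTR was higher in carriers than in non-carriers within each background. Ribosomes gathered inside the uORF, with 271 P sites at -207, 18 on the ACG codon and 0 at the end. At -207 there were 21.7 and 17 PPM in hot3-2 against 13.7 and 9.26 in WT, and 18.4 and 20.3 in hot3-2 dcl2 dcl4 against 19.3 and 23.6 in dcl2 dcl4, and the groups overlapped.

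TBF1, which switches growth to defence, had between 0 and 13 P sites per library. Its 5′ UTR held 3 and 4 in hot3-2 against 0 and 3 in WT, and 0 and 3 in hot3-2 dcl2 dcl4 against 4 and 2 in dcl2 dcl4. Differences were not detectable at this depth, and its effect on the 5′ UTR level was 0.77 (SE 0.98, limma adjusted p = 0.565).

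Summed over the 10 genes, with AdoMetDC1 at its deposited positions, the 5′ UTR share was 40.1% and 41.1% in hot3-2 against 30.8% and 27.9% in WT, and 43.1% and 38.4% in hot3-2 dcl2 dcl4 against 29.8% and 28.4% in dcl2 dcl4. The mean was 40.7% ± 1.98 in the carriers and 29.2% ± 1.31 in the non-carriers (SD, n = 4 each), a ratio of 1.39. Without AdoMetDC1 it was 45.1% and 42.04% in hot3-2 against 23.5% and 25.3% in WT, and 49.6% and 41.6% in hot3-2 dcl2 dcl4 against 27.5% and 26.3% in dcl2 dcl4, a ratio of 1.74. Without AdoMetDC1 and NMT1 the ratio was 1.08, with 61.2% ± 5.75 in the carriers and 56.7% ± 2.28 in the non-carriers (SD, n = 4 each). By library this share was 58.6% and 54.8% in hot3-2 against 53.8% and 57.9% in WT, a ratio of 1.015 with overlapping values. It was 68.1% and 63.2% in hot3-2 dcl2 dcl4 against 59.0% and 56.0% in dcl2 dcl4, a ratio of 1.14. NMT1 held the most coding-sequence P sites of the 10 genes after AdoMetDC1.

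Ribosomes at start codons were rare in these genes. Over all nuclear genes, 2.28% to 3.74% of coding-sequence P sites lay on the annotated start codon in the carriers and 0.533% to 0.754% in the non-carriers. In the 10 genes without AdoMetDC1 the start codon held 3 and 6 of 581 and 499 coding-sequence P sites in hot3-2 against 1 and 2 of 1578 and 1343 in WT, and 4 and 4 of 412 and 496 in hot3-2 dcl2 dcl4 against 2 and 0 of 1027 and 1240 in dcl2 dcl4. Nearly all were in bZIP11, with 2 and 6 in hot3-2 against 1 and 1 in WT, and 4 and 4 in hot3-2 dcl2 dcl4 against 2 and 0 in dcl2 dcl4. bZIP11 was the only one of the genes with enough start codon P sites to be tested, and it did not pass (log2 odds ratio 1.91, SE 1.05, adjusted p = 0.0851), where 57.1% of genes tested did and the median was 2.36.

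The same was asked of uORF start codons. In the 6766 other genes with a uORF of at least 10 codons, 5.86% and 4.19% of uORF P sites lay on the uORF start codon in hot3-2 against 3.35% and 2.86% in WT, and 4.01% and 4.97% in hot3-2 dcl2 dcl4 against 2.22% and 2.19% in dcl2 dcl4. The carriers lay above the non-carriers by a ratio of 1.79 (p = 0.0286 by a two-sided exact permutation test, the lowest p that 70 assignments can give). With footprints of 26 to 29 nt at fixed offsets the means were 11.3% in the carriers and 4.14% in the non-carriers, a ratio of 2.74. In the 9 genes other than AdoMetDC1 the share was 1.36% and 2.98% in hot3-2 against 1.70% and 8.82% in WT, and 0% and 5.64% in hot3-2 dcl2 dcl4 against 1.27% and 3.09% in dcl2 dcl4, with overlapping groups. With the ACG uORF of VTC2 in place of its ATG uORF it was 2.06% and 3.13% in hot3-2 against 1.13% and 6.15% in WT, and 0.725% and 5.93% in hot3-2 dcl2 dcl4 against 0.712% and 2.42% in dcl2 dcl4, and the groups again overlapped. Of the 3 genes that could be tested (bZIP2, NMT1 and AdoMetDC2) 0 passed, with 1 at an unadjusted p under 0.05, where 0.0% of 71 genes passed and 14 had an unadjusted p under 0.05. For the share at the uORF end 0 of 3 passed besides AdoMetDC1 (bZIP11, NMT1 and AdoMetDC2), with 0 at an unadjusted p under 0.05. Of 109 genes tested 1.83% passed, and 16 had an unadjusted p under 0.05.

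Genes that act with the proteins described here were taken from a fixed list for the coding-sequence level. Of 16 other polyamine genes 15 were tested, and 2 rose and 1 fell in the carriers, where 17.9% of all genes passed, 7.92% higher and 9.95% lower. In the comparison of hot3-2 with WT, 1 of the 15 rose and 1 fell, where 6.8% and 7.64% of all genes did. In that of hot3-2 dcl2 dcl4 with dcl2 dcl4, 1 of the 15 rose and 0 fell, where 8.73% of all genes passed. The effects below are the mean hot3-2 effect. PAO4, a peroxisomal polyamine oxidase, had 41.4 and 44.5 PPM in hot3-2 against 15.8 and 11.2 in WT, and 39.3 and 39.1 in hot3-2 dcl2 dcl4 against 15.5 and 11.1 in dcl2 dcl4. It rose by 1.54 (SE 0.23, limma adjusted p = 8.16e-08), and PAO2, a related oxidase, by 0.37 (SE 0.12, limma adjusted p = 0.0155). ADC1, an arginine decarboxylase at the entry of the pathway, had 66.1 and 72.0 in hot3-2 against 103 and 129 in WT, and 67.7 and 80.5 in hot3-2 dcl2 dcl4 against 80.8 and 93.8 in dcl2 dcl4, and fell by 0.56 on the log2 scale (SE 0.13, limma adjusted p = 0.000667). The 6 ascorbate genes, 2 phosphocholine genes and 2 genes linked to the bZIP factors that were tested gave no call. The median over the polyamine genes was -0.02, beside -0.03 over all genes.

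Among 5974 other genes, those whose 5′ UTR share was most like that of the summed 10 genes over the 8 libraries were AT2G25670, AT3G16080 and AT2G05100 (LHCB2.1), at Euclidean distances of 12.2, 13.3 and 13.7 percentage points. The second and the third of these also have P sites out of the annotated frame. This sum includes the deposited AdoMetDC1 positions. For the other 9 genes summed, the most similar were AT2G25210, AT4G12770 and AT1G30470, at 11.9, 13.99 and 16.96 percentage points, and the last 2 of these are also out of frame. The likeness is a description over 8 libraries.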

How the data were processed

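The deposited files of the 8 libraries hold 1 line per footprint, with transcript positions in nucleotides and no count column (unit: other, positions). Per the study's methods, the authors trimmed reads with cutadapt, mapped them with STAR to TAIR10 and set P-site offsets by footprint length with RiboTaper. How duplicates and multiply mapped footprints were treated is not given in the sources used here.

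P sites were tallied per gene for the 5′ UTR, the coding sequence, start codons and uORFs, without organelle genes and the ribosomal DNA frame AT2G01021. uORFs were read from RefSeq TAIR10.1, whose coding-sequence lengths matched all 22384 nuclear transcripts and whose 5′ UTR lengths matched 20455. Per gene, 1 uORF was tested, the longest ATG frame of at least 10 sense codons inside the 5′ UTR; for VTC2 the ACG frame is described. Levels were compared with limma voom (limma 3.58.1, R 4.3.3) with TMM scaling, shares with a quasi-binomial model whose dispersions were moderated over genes by limma, each with 1 coefficient per genotype and Benjamini-Hochberg adjustment over all genes tested. Levels needed 10 P sites relative to the median library in 2 libraries and 15 in all (coding sequence), or a mean of 2 per library and 15 in all (5′ UTR). Shares needed a mean of 50 P sites in the denominator and of 2 in the 5′ UTR or 1 on the start codon, and uORF shares a mean of 5 on the uORF and 0.5 at its start or end. In log2 odds ratios 0.5 was added to each count. Wilson intervals, the 95% level and the limit of 3 for a count of 0 cover counting error only. The model code was tested on simulated data. Exact permutation tests used SciPy 1.17.1.

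Named were all 10 genes, the genes of a fixed pathway list past the threshold in the mean hot3-2 effect, and the 3 genes with the most similar 5′ UTR share. Positions and single uORFs were picked out after their values were seen. A further rule, for host genes of annotated conserved uORF loci, gave no gene: 2 such loci are annotated and 0 lie inside another gene. The members and lists were chosen with earlier results of these data known. Alternatives were footprint lengths and offsets, scaling, filters, added counts, the last 15 nt of the 5′ UTR, the replicate number as a term and leaving out each library. RNA-seq was not used here.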

Additional observations from a re-analysis of the deposited data

Results flagged for a closer look

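Among 63 groups of 4 libraries examined, 4 held 1 library far from the other 3 by Dixon's test at the 95% level, where chance gives about 1 in 20. The bZIP2 5′ UTR had 28.9 PPM in hot3-2 dcl2 dcl4 library 2, against 13.6 to 15.0 in the other carriers. The NMT1 5′ UTR share was 3.27% in the same library, against 8.09% to 8.66% in the other carriers. The AdoMetDC2 5′ UTR share was 61.6% in hot3-2 library 2, against 52.3% to 53.8% in the other carriers. The AdoMetDC1 share of the deposited positions was 40.0% in WT library 1, against 30.9% to 32.3% in the other non-carriers.

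The hot3-2 effect on the NMT1 coding-sequence level differed between the backgrounds by an interaction of 0.64 on the log2 scale (SE 0.18, limma adjusted p = 0.0455). This call was lost in 4 of 8 fits without 1 library and under 3 other settings. The level was lower in both hot3-2 libraries than in both WT libraries, and in both hot3-2 dcl2 dcl4 libraries than in both dcl2 dcl4 libraries.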

How the results depend on the processing

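The fall of the NMT1 coding-sequence level and the rise of the bZIP11 5′ UTR level kept their direction and side of the threshold in all 8 fits without 1 library and under every other setting run. The calls of NMT1 between hot3-2 and WT and between hot3-2 dcl2 dcl4 and dcl2 dcl4 for the coding-sequence level did so too, and every other call of the 10 genes was lost in 2 or more of these fits. The summed 5′ UTR share had a ratio of 1.74 without AdoMetDC1, 1.08 without AdoMetDC1 and NMT1 and 1.69 with AdoMetDC1 moved, all 3 chosen after seeing the data, and of 1.36 to 1.42 without 1 library. With offsets fixed for 26 to 29 nt, genes called in the mean hot3-2 effect numbered 797 for the start codon share (1197 in the fit reported), 3 for the uORF start (0) and 0 for the uORF end (2). With 28 nt footprints they numbered 101 for the 5′ UTR share (492), 1371 for the coding-sequence level (2377), 268 for the 5′ UTR level (973), 436 for the start codon share and 0 for the uORF end. With the denominator minimum divided by 5 they numbered 302 for the 5′ UTR share and 0 for the uORF end, and with no low-count filter 1710 for the 5′ UTR level. Without 1 library they numbered 155 to 601 for the 5′ UTR share, 1847 to 2270 for the coding-sequence level, 357 to 1348 for the 5′ UTR level, 724 to 1228 for the start codon share, 0 to 1 for the uORF start and 0 to 2 for the uORF end. The ratio of uORF start codon shares was 2.74 with fixed offsets, 2.67 with 28 nt footprints and 1.65 to 1.96 without 1 library, the last with an exact permutation p of 0.0571, the smallest that 3 against 4 libraries allow. With the replicate block they numbered 445 for the 5′ UTR share and 0 for the uORF end. The replicate numbers do not pair the libraries: deviations of libraries with the same number correlated at -0.04 to 0.10 over 5792 genes.

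Directions turned for values that had not passed. With fixed offsets bZIP44 had 0.11 for the coding-sequence level and AdoMetDC2 0.022 for the 5′ UTR level. With 28 nt footprints AdoMetDC2 had -0.092 for the share and 0.015 for the coding-sequence level, and AdoMetDC1 -0.052 for the 5′ UTR level. Without 1 library the share ranged from -0.16 to 0.13 for bZIP44, -0.41 to 0.044 for VTC2 and -0.0070 to 0.27 for AdoMetDC2, and the 5′ UTR level from -0.016 to 0.22 for AdoMetDC1 and -0.26 to 0.33 for NMT1. The causes were not tested.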
